A study of Mus musculus with 15 samples.

Results

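The deletion of Rb in p53-deleted mouse mammary epithelial cells that also carried a MYC retrovirus was examined by comparing 3 arrays labelled p53- Rb- Myc+ with 3 labelled p53- Myc+, out of 15 arrays in the series. The cells came from 8-week-old female mice and were kept dividing in culture with serum, EGF, insulin, cholera toxin and hydrocortisone. In p53- Rb- Myc+ cells an adenovirus with Cre recombinase had removed both genes and a retrovirus overexpressed MYC. In p53- Myc+ cells the adenovirus had removed p53 only and the retrovirus was the same kind, so both groups lack p53 and both carry MYC. The other 9 arrays were p53- Rb-, p53- and wild type (WT) cells, 3 each, without the MYC retrovirus. The sources used here state neither the mouse strain, nor a control virus, nor whether samples with the same label were separate cultures. All p-values therefore rest on a spread between samples that may be technical. The number of arrays limits the precision.

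Rb, encoded by Rb1, is a pocket protein that binds E2F transcription factors and holds back the genes for S phase. Cyclin D with CDK4 or CDK6 phosphorylates Rb and releases E2F, and INK4 inhibitors block that kinase. MYC is a transcription factor that drives growth and also raises many cell cycle genes. Cells that lose epithelial traits can turn on matrix and migration genes, a change known as epithelial-mesenchymal transition.

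RNA was hybridised to Affymetrix gene arrays, and each gene is described by the intensity of 1 probe set on the linear scale the authors deposited. Fold changes are differences of the mean log2(intensity + 16), p53- Rb- Myc+ minus p53- Myc+, given ± SE, which understates the change of dim genes. A gene rose or fell when its adjusted p was under 0.05 in limma, a linear model fit across 19938 genes and all 15 arrays, with Benjamini-Hochberg adjustment. Array medians of the 6 arrays lay between 41.9 and 51, and arrays of these 2 groups correlated at r between 0.946 and 0.968 across genes, against 0.976 to 0.984 within p53- Rb- Myc+ and 0.964 to 0.977 within p53- Myc+.

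The targeted gene was dim in both groups. The Rb1 probe set read 20, 18.3 and 17.9 in p53- Rb- Myc+ cells, against 48, 26.8 and 34.4 in p53- Myc+ cells. No p53- Rb- Myc+ array reached the lowest p53- Myc+ array, as for 7.71% of all genes. Rb1 fell by 0.57 ± 0.16 on the log2 scale (limma, adjusted p = 0.0452), but 10 of the 17 alternative settings that kept the gene put its adjusted p above 0.05. The adjusted p was 0.24 without p53- Myc+ replicate 1, 0.0828 without p53- Myc+ replicate 3, and 0.0994, 0.139 and 0.122 without p53- Rb- Myc+ replicates 1, 2 and 3. In cells without the MYC retrovirus Rb1 read 52.7, 55.3 and 64.2 in p53- Rb- cells, against 147, 181 and 157 in p53- cells. The p53- Myc+ cells, labelled as having intact Rb, therefore read below p53- cells and below p53- Rb- cells too. Without MYC every p53- Rb- array read below every p53- array, so the probe set was lower with the Rb- label there as well. The sources used here do not say which part of Rb1 it covers, and whether that part was deleted was not tested. Group names below are those of the labels.

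The Myc probe set was not higher in cells with the retrovirus. It read 87.1, 93.5 and 108 in p53- Rb- Myc+ cells, against 114, 108 and 162 in p53- Myc+ cells, and p53- cells without it read 841, 1046 and 902. The difference between the 2 Myc+ groups did not pass (log2 fold change -0.35 ± 0.17, adjusted p = 0.343 in limma). No source used here says whether this mouse probe set can detect the retroviral MYC.

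The labelled cell type, mammary epithelium, was checked against its markers. The luminal keratin gene Krt18 read 22, 22.9 and 26.7 in p53- Rb- Myc+ cells, against 10.7, 0.471 and 3.18 in p53- Myc+ cells, and 4574, 5010.4 and 4424 in p53- cells. The basal keratin gene Krt5 read 5.44, 12.2 and 12.1 in p53- Rb- Myc+ cells, against 10, 0.389 and 6.14 in p53- Myc+ cells, and 1444, 1769 and 1755 in p53- cells. The adhesion genes Epcam and Cdh1 reached at most 23.5 on the 6 Myc+ arrays, against 1432 to 1889 on the p53- arrays. Epithelial defining markers were thus near the lower end of the scale in both Myc+ groups, while Vim, the mesenchymal intermediate filament gene, read 2880.3, 3093 and 3275 in p53- Rb- Myc+ cells, against 2579.7, 2682 and 2959 in p53- Myc+ cells. The 29 luminal markers summed to between 1213 and 1324 in p53- Rb- Myc+ cells and between 720 and 775 in p53- Myc+ cells, against 23182 to 26118 in p53- cells. The comparison below is therefore between cells that both lack most epithelial marker RNA.

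**Figure D1:**
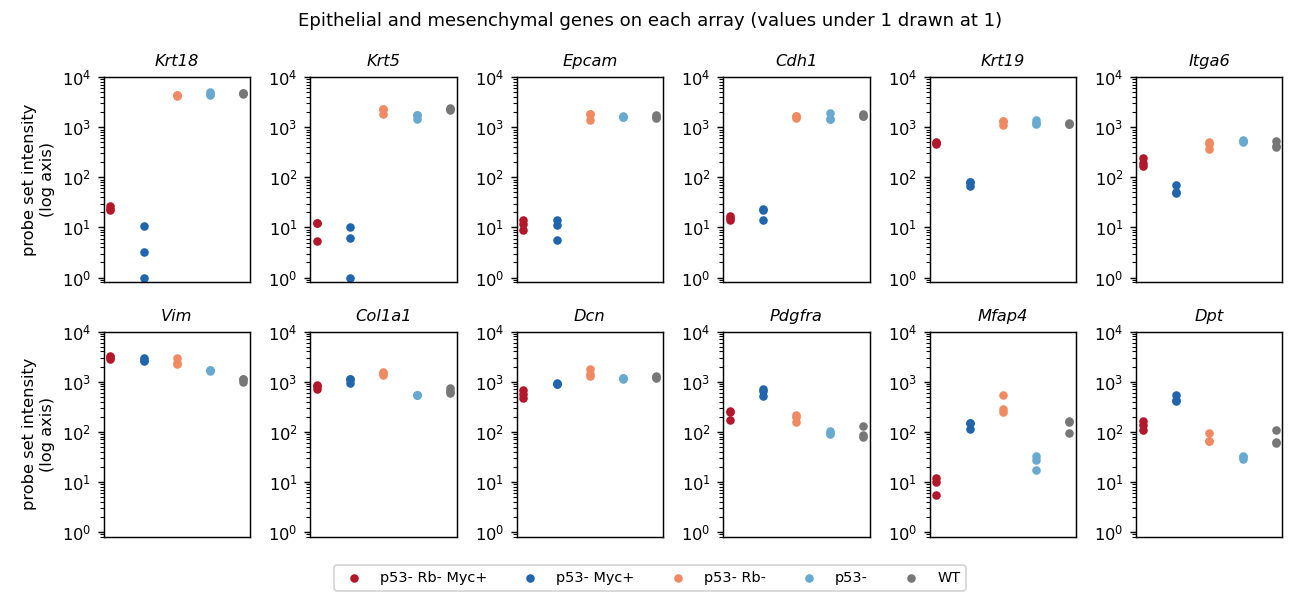
Probe set intensity (log axis) of 12 epithelial and mesenchymal genes on each of the 15 arrays, with 1 point per array and groups running left to right as in the legend. Krt18, Krt5, Epcam and Cdh1 lie far lower in both Myc+ groups than in the other groups, while Krt19 and Itga6 are higher and Pdgfra, Mfap4 and Dpt lower in p53- Rb- Myc+ cells than in p53- Myc+ cells.

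Within that setting, a few epithelial genes were higher with the Rb- label. Krt19, a keratin of simple epithelia, read 486, 465 and 517 in p53- Rb- Myc+ cells, against 65.7, 81.6 and 79.5 in p53- Myc+ cells (log2 fold change 2.47 ± 0.15, adjusted p = 9.78e-11 in limma). Both groups stayed below p53- cells, at 1228, 1176 and 1379. Krt18 also rose (0.97 ± 0.17), though at levels that stayed low in both groups. In all, 3 of 29 luminal markers and 2 of 23 basal markers rose and 0 fell, against 3.29% of all genes that rose and 1.4% that fell. The 2 basal markers were Itga6, an integrin of basal cells (1.57 ± 0.17), and Jag2, a Notch ligand (1.91 ± 0.17), both of which lists of integrins and Notch genes also hold. Over the alternatives between 1 and 5 luminal and between 1 and 4 basal markers rose. The fewest luminal markers rose with the filter for an intensity of at least 50 in 1 group. The fewest basal ones rose with the filter at the median level. These filters left dim genes out of the test, Krt18 and Jag2 among them. The summed level of the 23 basal markers did not rise with the markers that passed. It was between 2525 and 2792 in p53- Rb- Myc+ cells and between 2779 and 3130 in p53- Myc+ cells, so the ranges overlapped. Acta2, the smooth muscle actin gene, made up most of that sum in both groups, so the sum says little about the other basal markers. Acta2 read 1668, 1874 and 1879 in p53- Rb- Myc+ cells, against 2097, 2476 and 2389 in p53- Myc+ cells (log2 fold change -0.36 ± 0.18, adjusted p = 0.374 in limma), without overlap.

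Fibroblast markers moved the other way. Of 20 measured, 8 fell and 0 rose, where 1.4% and 3.29% of all genes did. The list median was -0.35 against 0.054 for all genes. The summed level was between 4683 and 5751 in p53- Rb- Myc+ cells and between 7332 and 8171 in p53- Myc+ cells. Col3a1, Col6a1 and Mfap5 are members that did not pass, with log2 fold changes of 0.49 ± 0.16, 0.026 ± 0.19 and -0.064 ± 0.22. Thy1 and Fap, other fibroblast genes, reached at most 26.6 and 10.8 on the 6 arrays. Smooth muscle markers summed to between 2320 and 2501 in p53- Rb- Myc+ cells and between 3053 and 3343 in p53- Myc+ cells. Tagln was the 1 of 15 that fell, or 6.67%, against 4.69% of all genes. Fewer cells of a type and less RNA per cell cannot be told apart in such bulk samples. Endothelial, leukocyte and adipocyte lists had 1 call each of 19, 22 and 13 members, or 5.26%, 4.55% and 7.69%, against 4.69% of all genes. Such single calls are no result about those cell types. Eng fell (-1.01 ± 0.17), Cd14 rose (0.97 ± 0.18) and Pnpla2 rose (0.61 ± 0.16). The Pnpla2 call ended in 6 of 19 alternatives, with an adjusted p of up to 0.13 in limma (without p53- Myc+ replicate 2). Ptprc and Csf1r, defining leukocyte genes, reached at most 52.1 and 46.4 on the 6 arrays and Pecam1, an endothelial one, 6.36.

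Across all genes, 935 of 19938 passed, or 4.69%, with 656 higher (3.29%) and 279 lower (1.4%) in p53- Rb- Myc+ cells. Of these, 245 rose and 97 fell at least 2-fold. At an unadjusted p under 0.05 there were 2968 genes. The median log2 fold change of all genes was 0.054, and 70.2% of calls were higher. With each array centred on its median that median became -0.025 and the share of higher calls 55.9%, and with quantile normalization -0.014 and 59.5%, so the surplus of higher calls depends on the scaling. The 3 arrays of a group lay wholly above those of the other for 4087 genes (20.5%), and for 927 of the 935 that passed.

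Among 34 measured genes of the RB network, 2 rose and 3 fell, or 14.7%, against 4.69% of all genes. Cdkn2c, which encodes the INK4 inhibitor p18, read 295, 316 and 400.2 in p53- Rb- Myc+ cells, against 144, 121 and 141 in p53- Myc+ cells (log2 fold change 1.21 ± 0.16, adjusted p = 2.67e-05 in limma). The p53- Rb- Myc+ arrays were all higher, without overlap. Cdkn2c rose in cells without MYC as well (0.72 ± 0.16, adjusted p = 0.00375 in limma), and the test of the difference between both changes did not pass (adjusted p = 0.169). Cdkn1c, for the CIP/KIP inhibitor p57, was much dimmer, with 39.7, 37.2 and 40.3 in p53- Rb- Myc+ cells, against 17.3, 10.4 and 26.3 in p53- Myc+ cells. It rose (log2 fold change 0.72 ± 0.17, adjusted p = 0.00989 in limma), but its adjusted p was 0.0779 without p53- Myc+ replicate 2.

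The D cyclins activate the Rb kinase. Ccnd2 read 581, 515 and 494 in p53- Rb- Myc+ cells, against 940.4, 1072 and 784 in p53- Myc+ cells and fell (log2 fold change -0.79 ± 0.16, adjusted p = 0.00415 in limma). In cells without MYC it rose (0.65 ± 0.16, adjusted p = 0.00756), and the difference passed (adjusted p = 0.000244 in limma). Ccnd1 read 715, 794 and 725 in p53- Rb- Myc+ cells, against 1007, 1261 and 1190.1 in p53- Myc+ cells, and the groups did not overlap. Ccnd1 fell (log2 fold change -0.61 ± 0.18, adjusted p = 0.0471 in limma), though 8 of 19 alternatives put its adjusted p above 0.05, among them adjusted p-values of 0.162 and 0.118 without p53- Myc+ replicates 2 and 3 and of 0.152, 0.0915 and 0.127 without p53- Rb- Myc+ replicates 1, 2 and 3. Ccnd3 (0.059 ± 0.20, turning to -0.020 with median centring), Cdk4 (-0.13 ± 0.14) and Cdk6 (0.42 ± 0.16) did not pass.

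None of the E2F genes E2f1 to E2f8 passed, though E2f6 (0.45 ± 0.15) did with 64 added in place of 16 (adjusted p = 0.0377 in limma), nor did Rbl1 and Rbl2, the pocket protein relatives p107 and p130. E2f1 read 216, 259 and 292 in p53- Rb- Myc+ cells, against 276, 381 and 295 in p53- Myc+ cells (-0.29 ± 0.19), and the groups overlapped. E2f2 read 33.1, 43.9 and 56.4 in p53- Rb- Myc+ cells, against 25.9, 24.5 and 25.3 in p53- Myc+ cells (log2 fold change 0.53 ± 0.19, adjusted p = 0.13 in limma), without overlap. Rbl1 had a change of 0.35 ± 0.16 and Rbl2 of 0.30 ± 0.18. Ccne1 and Ccne2, the E cyclins that start S phase, had -0.27 ± 0.19 and 0.16 ± 0.20, and Ccna2, the S phase cyclin, 0.063 ± 0.15. For 31 of the 34 genes the 95% confidence interval of the change lay within 2-fold either way. Cdkn2d, for the INK4 inhibitor p19, did not pass (log2 fold change 0.58 ± 0.18, adjusted p = 0.0788 in limma) but did so in 4 alternatives, with an adjusted p of at least 0.0433.

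**Figure D2:**
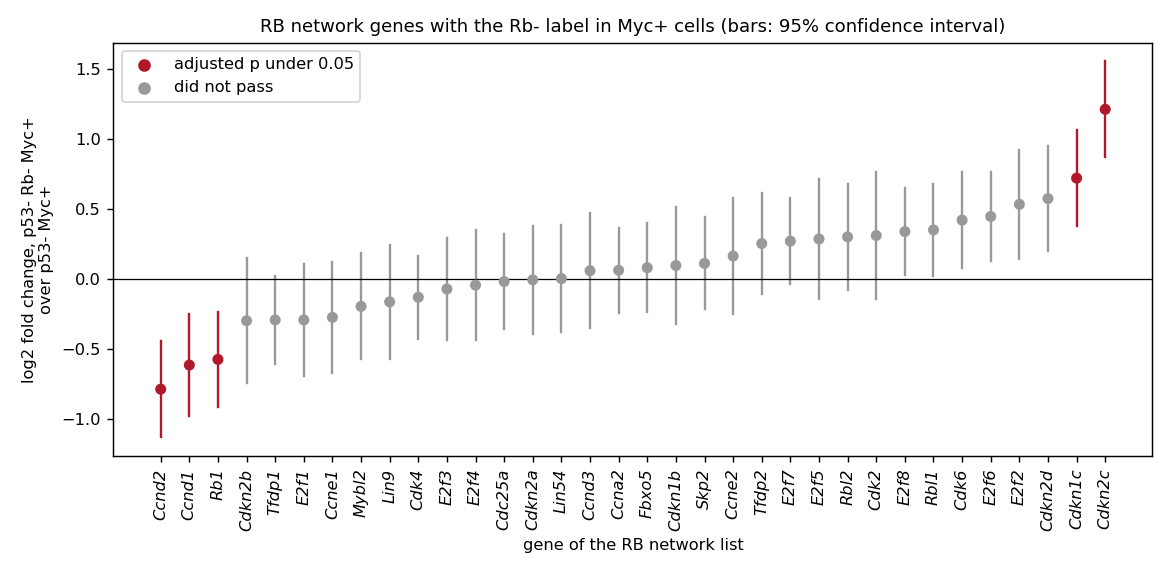
Log2 fold change (p53- Rb- Myc+ over p53- Myc+) of 34 RB network genes, ordered by value, with bars for the 95% confidence interval of the limma fit over 15 arrays. Cdkn2c and Cdkn1c at the right and Ccnd2, Ccnd1 and Rb1 at the left passed; intervals of the E2F genes include or lie near 0.

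The S phase genes known as E2F targets did not pass in either direction: 0 of 57 measured genes rose or fell (limma), against 4.69% of all genes. Their median log2 fold change was -0.063, with a range of -0.31 to 0.34, and 1 had an unadjusted p under 0.05. The smallest adjusted p was 0.331. All 57 confidence intervals (95%) lay within 2-fold, the outer limits being -0.67 and 0.81. None passed under any of the 19 alternatives either. These counts describe this list only.

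Pcna, the sliding clamp of DNA polymerase, read 1584, 1653 and 1619.6 in p53- Rb- Myc+ cells, against 1690.1, 1615 and 1622 in p53- Myc+ cells (-0.020 ± 0.18). Rrm2, a subunit of ribonucleotide reductase, read 1094, 1202 and 953 in p53- Rb- Myc+ cells, against 784, 1177 and 808 in p53- Myc+ cells (0.25 ± 0.27). Both were bright, and in both the groups overlapped. Without MYC, 10 of the 57 genes rose and 5 fell between p53- Rb- and p53- cells, where 9.36% and 10.4% of all genes did. The test of the difference between both Rb comparisons passed for 5 of the 57, against 13.6% of all genes.

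E2F binds short GC-rich sites near the start of many of these genes. The letters TTTCCCGC, TTTCGCGC, TTTGCCGC and TTTGGCGC were searched on both strands in RefSeq promoters (GRCm38.p6, 250 bases before to 50 after the start), and overlapping matches were kept. They occurred in promoters of 704 of 27025 genes (2.6%) and in 18 of 45 S phase genes with a promoter (40%). Of 543 tested genes with a match, 13 passed, or 2.39%, where 4.5% of all 15614 tested genes with a promoter did. The promoters of Mcm5, Mcm6 and Cdc6, which encode loaders and subunits of the replicative helicase, are shown because they hold such letters while their RNA did not pass. That of Cdkn2c is shown because its RNA rose and the 250 bases hold none of them. Capitals mark matches, and each sequence is the 250 bases that end just before the start, 5′ to 3′, on the strand of the gene.
Mcm5 promoter, chr8:75109259-75109508, plus strand: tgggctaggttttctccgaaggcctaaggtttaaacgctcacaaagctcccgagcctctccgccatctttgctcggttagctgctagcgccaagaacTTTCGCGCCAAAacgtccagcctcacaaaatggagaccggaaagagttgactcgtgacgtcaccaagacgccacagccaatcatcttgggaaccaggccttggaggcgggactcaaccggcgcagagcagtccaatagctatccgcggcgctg
Mcm6 promoter, chr1:128359706-128359955, minus strand: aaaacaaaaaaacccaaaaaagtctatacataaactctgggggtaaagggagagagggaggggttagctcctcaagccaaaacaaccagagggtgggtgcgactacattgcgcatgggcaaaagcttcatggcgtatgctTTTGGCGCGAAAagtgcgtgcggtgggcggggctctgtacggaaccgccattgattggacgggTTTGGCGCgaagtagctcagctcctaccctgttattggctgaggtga
Cdc6 promoter, chr11:98907901-98908150, plus strand: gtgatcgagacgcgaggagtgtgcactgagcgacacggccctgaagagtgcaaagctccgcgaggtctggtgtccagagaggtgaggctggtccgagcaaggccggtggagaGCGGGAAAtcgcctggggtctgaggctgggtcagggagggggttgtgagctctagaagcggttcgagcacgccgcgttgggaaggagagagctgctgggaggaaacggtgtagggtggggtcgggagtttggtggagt
Cdkn2c promoter, chr4:109666757-109667006, minus strand: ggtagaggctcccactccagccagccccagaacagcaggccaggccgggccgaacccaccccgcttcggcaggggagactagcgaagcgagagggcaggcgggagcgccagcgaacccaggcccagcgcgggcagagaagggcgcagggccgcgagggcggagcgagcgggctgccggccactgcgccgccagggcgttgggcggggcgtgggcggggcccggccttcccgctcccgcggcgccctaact
The 12 capitals of Mcm5 hold 2 overlapping matches, on opposite strands, at -153 and -149 from the start, and Mcm6 holds a like pair at -110 and -106 and another match at -47. Cdc6 has a single match at -138. Finding no match says only that these letters are not in this window.

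The RNA of those helicase genes did not pass. Mcm5 read 404, 372 and 363 in p53- Rb- Myc+ cells, against 340.2, 415 and 367 in p53- Myc+ cells (0.023 ± 0.16). Mcm6 read 578, 541 and 618 in p53- Rb- Myc+ cells, against 671, 513 and 653 in p53- Myc+ cells (-0.071 ± 0.19). Cdc6 read 176, 159 and 198 in p53- Rb- Myc+ cells, against 174, 152 and 218 in p53- Myc+ cells (-0.015 ± 0.19). In each of them the arrays of both groups overlapped, and the 95% intervals ran from -0.31 to 0.36, from -0.46 to 0.32 and from -0.42 to 0.39.

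Mitosis genes also made no calls: 0 of 63 passed, against 4.69% of all genes, with a median of -0.0058 and a range of -0.28 to 0.53. Birc5, for the chromosomal passenger survivin, had 0.078 ± 0.16 and Anln, for the cytokinesis protein anillin, 0.27 ± 0.16. At most 1 mitosis gene passed under any of the 19 alternatives. Of 31 genes of DNA repair and checkpoints 0 passed, and of 19 measured replication-dependent histone genes 0 passed. At the share of all genes such short lists would hold few calls, so 0 is close to that background. All 63 and all 31 intervals lay within 2-fold, as did 14 of the 19 for histones. With the replicate block on the 6 arrays 2 histone genes fell, among them H4c4 (-0.87 ± 0.39, adjusted p = 0.0423 with the block in limma and 0.285 without it). Without p53- Myc+ replicate 3, 2 histone genes rose. At most 1 DNA repair gene fell under any of the alternatives.

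Of 40 ribosome biogenesis genes 0 passed, against 4.69% of all genes, and the list median was -0.12. In 13 of the 40 the p53- Rb- Myc+ arrays were all lower than the p53- Myc+ arrays and in 0 all higher, where 7.71% and 12.8% of all genes were. Fbl, for the nucleolar methyltransferase fibrillarin, read 2187, 2432 and 2442 in p53- Rb- Myc+ cells, against 2154, 2299 and 2298 in p53- Myc+ cells (0.063 ± 0.14). Of 25 genes of nucleotide, one-carbon and polyamine synthesis 0 passed, and Odc1, the first enzyme of polyamine synthesis, had -0.25 ± 0.15. Here 8 of the 25 were lower on all arrays and 0 higher. With 64 added in place of 16, 1 gene of each of these lists fell. Of 13 genes of the MYC network and of 31 of oxidative phosphorylation 0 passed. In lists as short as those of this paragraph 0 calls are not far from the share of all genes. Max, the partner of MYC, had 0.15 ± 0.17. In these 8 lists together, unadjusted p-values under 0.05 were found for between 0 and 7 genes a list. The E-box CACGTG, the MYC site, was in 1483 tested promoters, of which 4.72% had a gene that passed, where 4.5% of all tested genes with a promoter did.

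**Figure D3:**
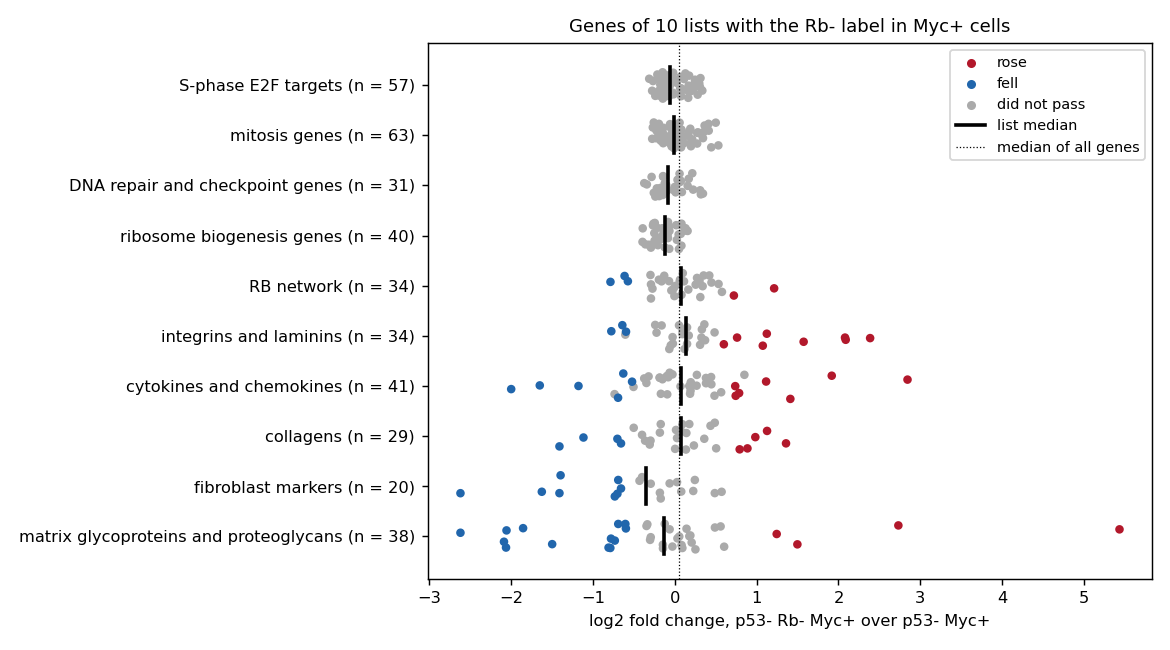
Log2 fold change (p53- Rb- Myc+ over p53- Myc+) of the members of 10 gene lists, 1 point per gene, red for genes that rose, blue for genes that fell and grey for those that did not pass; bars mark list medians and the dotted line the median of all genes, 0.054. Points of the S phase, mitosis, DNA repair and ribosome biogenesis lists lie within 0.6 of 0 and none passed. In the RB network 5 of 34 passed, against 4.69% of all genes, with values from -0.79 to 1.21. Integrin, cytokine, collagen, fibroblast and matrix lists spread to both sides.

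Among passing genes of at least 100 in the higher group, the highest fold changes were those of Efemp1, Serping1 and Igfbp4. Efemp1, which encodes the matrix protein fibulin-3, read 1147, 1021 and 879 in p53- Rb- Myc+ cells, against 11, 14.8 and 0.0223 in p53- Myc+ cells (log2 fold change 5.44 ± 0.20, adjusted p = 4.68e-14 in limma). Serping1, for the C1 inhibitor of complement, read 679, 674 and 646 in p53- Rb- Myc+ cells, against 16.4, 14.5 and 18.5 in p53- Myc+ cells (log2 fold change 4.39 ± 0.18, adjusted p = 1.79e-13 in limma). Igfbp4, an IGF-binding protein, read 698, 745 and 783 in p53- Rb- Myc+ cells, against 32.3, 31.9 and 34.1 in p53- Myc+ cells (log2 fold change 3.96 ± 0.19, adjusted p = 2.82e-12 in limma). Each was dim on all 3 p53- Myc+ arrays and bright on all 3 p53- Rb- Myc+ arrays. The Efemp1 value was 7.45 with 1 added before the logarithm and 3.89 with 64, so its size rests on that constant.

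Other genes of the 12 with the highest fold change also lay apart on all 6 arrays. Crip1, for a small LIM protein, rose by 3.71 ± 0.22 and Slco2a1, the prostaglandin transporter, by 3.5 ± 0.18. Pcdh17, a protocadherin, rose by 3.34 ± 0.17, and Adgrg2, an adhesion receptor, by 3.17 ± 0.19. Stra6, the membrane receptor for retinol-binding protein, read 923, 909.9 and 899 in p53- Rb- Myc+ cells, against 78.8, 103 and 77.9 in p53- Myc+ cells (3.18 ± 0.20). Ctsc, the lysosomal protease cathepsin C, rose by 3.17 ± 0.16, and Grb10, an imprinted adaptor that restrains insulin receptor signalling, by 3.01 ± 0.16. Hspb1, a small heat shock protein, rose by 2.99 ± 0.19 and Sbsn, the secreted protein suprabasin, by 2.97 ± 0.18.

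By the same rule the lowest fold changes were those of Slc43a3, Klhl13 and Tubb3. Slc43a3, a membrane transporter, read 11, 21.9 and 17.4 in p53- Rb- Myc+ cells, against 608, 691 and 570.3 in p53- Myc+ cells (log2 fold change -4.3 ± 0.16, adjusted p = 4.68e-14 in limma). Klhl13, an adaptor of a cullin ubiquitin ligase, read 27.6, 31.9 and 36.6 in p53- Rb- Myc+ cells, against 795, 673 and 667 in p53- Myc+ cells (log2 fold change -3.92 ± 0.20, adjusted p = 6.16e-12 in limma). Tubb3, a beta-tubulin best known from neurons, read 77.4, 68.3 and 121 in p53- Rb- Myc+ cells, against 924, 701 and 851 in p53- Myc+ cells (log2 fold change -3.03 ± 0.20, adjusted p = 3.48e-10 in limma). All 3 p53- Myc+ arrays were bright for each, and no p53- Rb- Myc+ array came near them.

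Mmp3, the protease stromelysin-1, read 37.1, 24.6 and 30.3 in p53- Rb- Myc+ cells, against 341, 322 and 377 in p53- Myc+ cells (-2.97 ± 0.18). Crabp1, a cytosolic retinoic acid-binding protein, read 269, 173 and 248 in p53- Rb- Myc+ cells, against 1435, 1429.5 and 1359 in p53- Myc+ cells (-2.55 ± 0.18). Slc38a1, a glutamine transporter, fell by 2.34 ± 0.19 on the log2 scale. Epha3, an ephrin receptor, had -2.9 ± 0.19, Fbxo17, an F-box protein, -2.86 ± 0.17, and Mfap4, a microfibril protein, -2.62 ± 0.24. Lgi2 had -2.52 ± 0.18, the transcription factor gene Osr1 -2.2 ± 0.18, and Nexn, for an actin-binding protein, -2.13 ± 0.19. These 24 genes of both directions were chosen by their fold change, passed in every alternative that kept them, and showed the direction on all 6 arrays as the choice required. The alternatives that kept them were 19, or 18 for Pcdh17, Epha3, Lgi2 and Nexn, which the filter at the median level dropped.

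**Figure D4:**
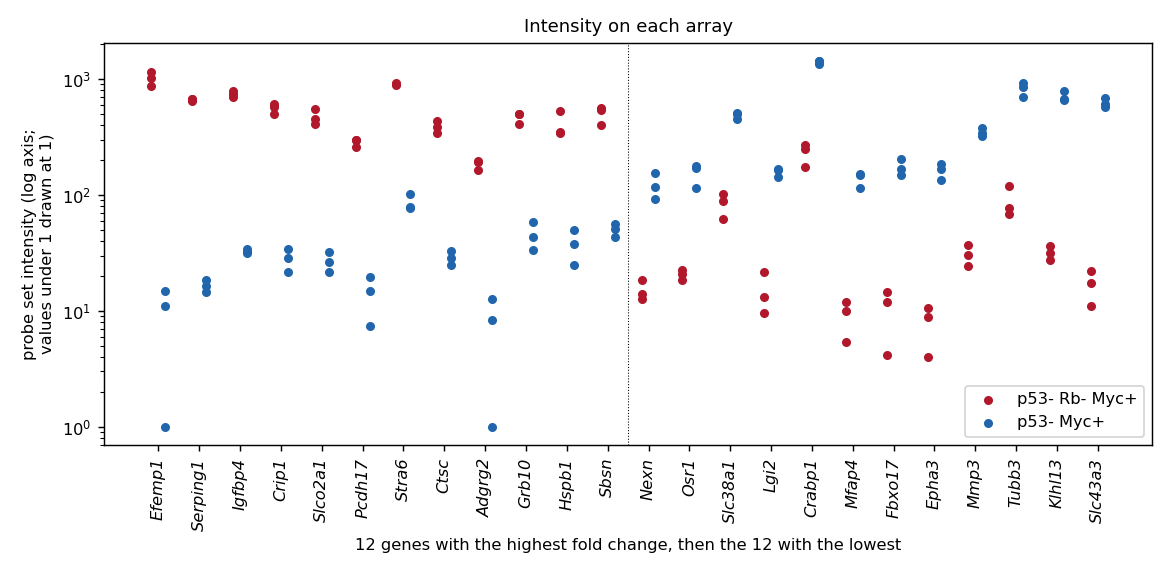
Probe set intensity (log axis) on each p53- Rb- Myc+ and p53- Myc+ array for the 12 genes at either end of the fold change. For each gene the 3 points of 1 group lie wholly above the 3 of the other, as the choice of genes required.

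Matrix genes made the most calls of any list described: of 38 measured genes of matrix glycoproteins and proteoglycans, 4 rose and 13 fell, with a median of -0.13. Thus 44.7% of them passed, against 4.69% of all genes, of which 3.29% rose and 1.4% fell. The fibroblast markers described above shared several of these genes and their summed level moved the same way, and their part in the result was not tested. Tnc, for tenascin-C, read 33.9, 40.7 and 44 in p53- Rb- Myc+ cells, against 236, 201 and 223 in p53- Myc+ cells (log2 fold change -2.09 ± 0.16, adjusted p = 3.26e-09 in limma). Postn, for periostin, read 248, 225 and 142 in p53- Rb- Myc+ cells, against 966, 977 and 738 in p53- Myc+ cells (log2 fold change -2.06 ± 0.19, adjusted p = 6.35e-08 in limma). Both are matricellular proteins of remodelling tissue, and in both the groups were far apart.

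Thbs2 and Thbs1, for thrombospondins, had -2.06 ± 0.16 and -1.5 ± 0.16, and Fbn2, for the microfibril protein fibrillin-2, -1.86 ± 0.18. Fn1, for fibronectin, read 698, 644 and 545 in p53- Rb- Myc+ cells, against 1025, 1103 and 1028 in p53- Myc+ cells and fell (log2 fold change -0.73 ± 0.14, adjusted p = 0.00232 in limma). Of the fibroblast markers outside this list, Dpt, for dermatopontin, fell (-1.63 ± 0.20), as did Pdgfra, the PDGF receptor that marks fibroblasts, at 248, 258 and 172 in p53- Rb- Myc+ cells, against 705, 636 and 510.2 in p53- Myc+ cells (log2 fold change -1.4 ± 0.19, adjusted p = 3.12e-05 in limma). Against this direction, Prg4, for the lubricating proteoglycan lubricin, read 853, 895 and 1031 in p53- Rb- Myc+ cells, against 114, 116 and 148 in p53- Myc+ cells (log2 fold change 2.73 ± 0.19, adjusted p = 7.3e-10 in limma). Aspn, for asporin, rose (1.5 ± 0.17), and Ogn, for osteoglycin, rose too (1.24 ± 0.21), though its adjusted p was 0.172 in limma with 1 added in place of 16. Over the 19 alternatives between 2 and 6 of the matrix genes rose and between 10 and 14 fell.

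Collagen genes went both ways: of 29 measured, 5 rose and 4 fell, or 31%, against 4.69% of all genes. Col4a1, Col4a2 and Col4a5, chains of the basement membrane collagen IV, rose by 0.79 ± 0.16, 1.13 ± 0.17 and 1.36 ± 0.21. Col4a2 read 127, 147 and 133 in p53- Rb- Myc+ cells, against 63.4, 38.8 and 60.5 in p53- Myc+ cells, so the groups were clearly apart though not bright. Col12a1 and Col6a3, chains of collagens of the interstitial matrix, fell, with -1.12 ± 0.17 and -1.41 ± 0.22. Col12a1 read 283, 313 and 224 in p53- Rb- Myc+ cells, against 640.2, 656 and 530.4 in p53- Myc+ cells. Col1a1, the main chain of collagen I, had -0.40 ± 0.16 and did not pass. Between 4 and 6 collagens rose and between 2 and 5 fell over the alternatives.

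Of 34 integrin and laminin genes 8 rose and 3 fell, where 3.29% of all genes rose and 1.4% fell. Itga3, a laminin-binding integrin chain, read 299, 296 and 272 in p53- Rb- Myc+ cells, against 42.7, 63.3 and 64.4 in p53- Myc+ cells (log2 fold change 2.08 ± 0.16, adjusted p = 5.85e-09 in limma). Itga6, another laminin-binding chain, read 239.6, 198 and 171 in p53- Rb- Myc+ cells, against 49.6, 70.8 and 51.9 in p53- Myc+ cells (log2 fold change 1.57 ± 0.17, adjusted p = 1.48e-06 in limma). Lama5, the laminin alpha-5 chain, read 222, 162 and 142 in p53- Rb- Myc+ cells, against 29.9, 26.9 and 27.9 in p53- Myc+ cells (log2 fold change 2.09 ± 0.18, adjusted p = 5.01e-08 in limma). In all of these the p53- Rb- Myc+ arrays were the higher ones without overlap. Itgb7, an integrin chain best known from leukocytes, rose by 2.39 ± 0.19, Lamb2 by 1.12 ± 0.19 and Itgb3 by 1.07 ± 0.20, while Lama4 fell (-0.78 ± 0.17), with an adjusted p of 0.0517 in limma without p53- Rb- Myc+ replicate 2. Over the alternatives 6 to 9 rose and 0 to 4 fell, with 0 falls without p53- Rb- Myc+ replicate 2.

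Among 33 metalloproteinases and inhibitors 1 rose and 4 fell, or 15.2%, against 4.69% of all genes. Mmp2, the gelatinase A gene, read 422, 423 and 369.8 in p53- Rb- Myc+ cells, against 1008, 1128 and 852 in p53- Myc+ cells (log2 fold change -1.26 ± 0.17, adjusted p = 2.71e-05 in limma). Adam12 and Adam19, membrane metalloproteinases, had -0.80 ± 0.17 and -0.85 ± 0.17, and Adam8 rose (1.29 ± 0.24), with an adjusted p of 0.0719 in limma when 1 was added in place of 16. Of 17 genes of the plasminogen system and serpins 3 rose and 0 fell, or 17.6%. Plau, for the urokinase plasminogen activator, was among those that rose, at 263, 236 and 294 in p53- Rb- Myc+ cells, against 82, 145 and 96.4 in p53- Myc+ cells (log2 fold change 1.21 ± 0.25, adjusted p = 0.00316 in limma). Of 28 genes of epithelial-mesenchymal transition 1 rose and 2 fell, so that 10.7% passed, against 4.69% of all genes. Tagln, for the actin-binding protein transgelin, fell (-1.39 ± 0.22), beside the lower summed smooth muscle markers given above, whose part in the result was not tested.

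In growth factor signalling 7 of 61 genes rose and 5 fell, or 19.7%, against 4.69% of all genes. Igfbp4 and Igfbp6 rose (3.96 ± 0.19 and 1.71 ± 0.17) while Igfbp3 fell, reading 122, 102 and 116 in p53- Rb- Myc+ cells, against 387, 486 and 446 in p53- Myc+ cells (log2 fold change -1.81 ± 0.18, adjusted p = 3.07e-07 in limma). The 3 binding proteins of IGF thus differed in direction. Fgf2, a fibroblast growth factor, rose by 1.61 ± 0.20, and Dusp4, a phosphatase induced by ERK signalling, by 0.95 ± 0.18. Nrg1, the ERBB ligand neuregulin, fell (-1.26 ± 0.16). Without p53- Myc+ replicate 2 the list had 4 genes that rose and 3 that fell, and with 64 added in place of 16, 7 fell.

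Of 42 genes of TGF-beta and BMP signalling 5 rose and 3 fell (19%, against 4.69% of all genes), but with median centring 3 rose and 5 fell. Id1, an inhibitor of differentiation that BMP induces, read 284, 334 and 402 in p53- Rb- Myc+ cells, against 87.5, 103 and 95.6 in p53- Myc+ cells (log2 fold change 1.66 ± 0.16, adjusted p = 1.66e-07 in limma), while Id2 fell (-0.76 ± 0.16). Tgfb1 and Tgfb2, both ligands, rose as well (0.79 ± 0.16 and 0.81 ± 0.18). The calls of Bmp6 (0.64 ± 0.16) and Gdf10 (0.78 ± 0.20), both ligands, each ended in 7 alternatives, with adjusted p-values of up to 0.104 (without p53- Rb- Myc+ replicate 3) and 0.0938 (without p53- Rb- Myc+ replicate 2) in limma. Of 47 Wnt genes 2 rose and 3 fell, or 10.6%, against 4.69% of all genes. The ligand Wnt10a rose by 2.13 ± 0.20 and the enhancer Rspo3 by 0.89 ± 0.17, while the secreted antagonists Sfrp1 and Sfrp2 fell (-1.85 ± 0.19 and -1.05 ± 0.20), as did the inhibitor Nkd2 (-0.82 ± 0.16). Sfrp1 read 42.2, 37.1 and 68.7 in p53- Rb- Myc+ cells, against 194, 232 and 220.3 in p53- Myc+ cells. Of 21 Notch genes 2 rose, the ligand Jag2 and the glycosyltransferase Lfng (1.91 ± 0.17 and 1.68 ± 0.23), and 0 fell, so that 9.52% passed.

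Axon guidance genes, which also steer migrating cells, had 7 of 43 higher and 4 lower, or 25.6%, against 4.69% of all genes. The receptor gene Robo1 rose (1.67 ± 0.20) and the gene of its ligand Slit2 fell, reading 209, 185 and 179 in p53- Rb- Myc+ cells, against 569, 645 and 521 in p53- Myc+ cells (log2 fold change -1.52 ± 0.16, adjusted p = 4.98e-07 in limma). Semaphorin genes went both ways, with Sema4a and Sema3f higher (1.47 ± 0.22 and 0.92 ± 0.16) and Sema5a lower (-1.75 ± 0.18). Ntn1, for the guidance factor netrin-1, rose by 0.90 ± 0.19 and Efna5, an ephrin ligand, by 1.23 ± 0.20.

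Cytokine genes went both ways, 7 of 41 higher and 6 lower (31.7%, against 4.69% of all genes), with between 4 and 8 rising and between 4 and 8 falling over the alternatives. It was 4 lower without p53- Myc+ replicate 1 and 8 lower with quantile normalization. Leukocyte markers summed to between 812 and 872 in p53- Rb- Myc+ cells and between 698 and 741 in p53- Myc+ cells, and their part in the result was not tested. Ackr3, the scavenger receptor for CXCL12, read 344, 367 and 406 in p53- Rb- Myc+ cells, against 42.3, 28.8 and 44.2 in p53- Myc+ cells (log2 fold change 2.84 ± 0.17, adjusted p = 8.17e-11 in limma). Cxcl12 itself read 38.8, 29.2 and 38.5 in p53- Rb- Myc+ cells, against 139, 145 and 151 in p53- Myc+ cells (log2 fold change -1.65 ± 0.19, adjusted p = 2.31e-06 in limma). The receptor gene thus rose and the ligand gene fell, both without overlap. The alarmin Il33 rose by 1.92 ± 0.20, and the chemokines Ccl9 and Ccl11 by 1.41 ± 0.17 and 1.12 ± 0.18. Cxcl14 fell (-2.0 ± 0.18), Csf1, the macrophage growth factor, fell (-1.18 ± 0.16), and Ptgs2, for cyclooxygenase-2, fell (-0.69 ± 0.15).

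Of 17 acute-phase and complement genes 4 rose and 0 fell, or 23.5%, against 4.69% of all genes. Lcn2, for the iron-binding protein lipocalin-2, read 986, 792 and 1040.4 in p53- Rb- Myc+ cells, against 151, 153 and 169 in p53- Myc+ cells (log2 fold change 2.45 ± 0.15, adjusted p = 1.87e-10 in limma). Orm1, for orosomucoid, rose by 0.84 ± 0.17. Among 36 interferon-induced genes 3 rose and 0 fell, or 8.33%. Those that rose were Isg20, Stat2 and Bst2, with 1.08 ± 0.17, 0.98 ± 0.16 and 0.87 ± 0.20. Bst2 no longer passed without p53- Myc+ replicate 2 or p53- Rb- Myc+ replicate 3, with an adjusted p of up to 0.0559 in limma. In cells without MYC 2 of the 36 rose and 15 fell with the Rb- label, where 9.36% and 10.4% of all genes did. The difference passed for 15 of the 36, against 13.6% of all genes. Psme1, a proteasome activator, was the 1 of 19 antigen presentation genes that rose (0.78 ± 0.15). That is 5.26%, against 4.69% of all genes, so this single call is no result about the list. Between 2 and 6 interferon-induced genes rose over the alternatives, the fewest without p53- Myc+ replicate 2.

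Of 37 Hox genes, which keep positional identity, Hoxb6, Hoxb7 and Hoxb9 rose and Hoxd4, Hoxd8 and Hoxd9 fell. Thus 16.2% passed, against 4.69% of all genes. Hoxb6 read 211, 257 and 310.2 in p53- Rb- Myc+ cells, against 47.1, 42.5 and 73 in p53- Myc+ cells (log2 fold change 1.98 ± 0.26, adjusted p = 1.54e-05 in limma), and Hoxb9 rose by 0.74 ± 0.16. Hoxd8 read 45.9, 67.9 and 42.5 in p53- Rb- Myc+ cells, against 176, 194 and 194 in p53- Myc+ cells (log2 fold change -1.6 ± 0.19, adjusted p = 4.4e-06 in limma). The calls of Hoxb7, Hoxd9 and Hoxd4 each ended in 5 alternatives, with adjusted p-values of up to 0.123 (without p53- Rb- Myc+ replicate 2), 0.122 and 0.106 (both without p53- Rb- Myc+ replicate 3) in limma. Among genes at or above the median level 1 Hox gene rose and 0 fell. Of 20 imprinted genes, of which 35% passed, 6 rose and 1 fell. Besides Grb10, they included Ndn, for the growth-restraining protein necdin (1.44 ± 0.21), and Peg3 (1.37 ± 0.21). Between 3 and 6 imprinted genes rose over the alternatives, the fewest without p53- Myc+ replicate 2.

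Both groups lack p53, and 4 of 32 known p53 targets rose while 1 fell, or 15.6%, against 4.69% of all genes. Sesn1, for the stress protein sestrin-1, read 185, 246 and 250.2 in p53- Rb- Myc+ cells, against 79.4, 89.5 and 96.8 in p53- Myc+ cells (log2 fold change 1.21 ± 0.17, adjusted p = 3.19e-05 in limma), and Phlda3, an inhibitor of AKT, rose by 1.02 ± 0.19. The 1 that fell was Igfbp3. Without p53- Myc+ replicate 1, 2 p53 targets rose. Of 25 genes of the BCL2 family and caspases 3 rose and 0 fell, or 12%. Bid, a BH3-only protein that links death receptors to mitochondria, read 219, 225 and 192 in p53- Rb- Myc+ cells, against 88.6, 92.5 and 89.2 in p53- Myc+ cells (log2 fold change 1.1 ± 0.15, adjusted p = 2.05e-05 in limma). Casp8, the caspase that cleaves Bid, read 132, 121 and 121 in p53- Rb- Myc+ cells, against 50.2, 54.5 and 59.2 in p53- Myc+ cells (log2 fold change 0.99 ± 0.15, adjusted p = 0.000151 in limma).

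The share that passed was 6.67% of 15 glycolysis genes, 9.52% of 21 hypoxia-induced genes, 17.6% of 17 NRF2 antioxidant genes and 10.5% of 19 cholesterol synthesis genes, against 4.69% of all genes, which came to between 1 and 3 genes a list. Pfkp, a phosphofructokinase, was the 1 of 15 glycolysis genes that passed, and it rose by 1.08 ± 0.16. Of 21 hypoxia-induced genes Ndrg1 rose (1.04 ± 0.15) and Adm, for the vasodilator adrenomedullin, fell (-1.41 ± 0.15). Gsta4, a glutathione transferase, read 354, 314 and 406 in p53- Rb- Myc+ cells, against 56.3, 68.4 and 60.6 in p53- Myc+ cells (log2 fold change 2.26 ± 0.17, adjusted p = 4.71e-09 in limma), and with it 2 of 17 NRF2 genes rose and 1 fell. Stard4, a cholesterol carrier, was among 2 of 19 cholesterol synthesis genes that rose (0.94 ± 0.17). Of 23 immediate early genes Dusp1, a MAP kinase phosphatase, rose (1.37 ± 0.16) and Fosl2, an AP-1 subunit, fell (-0.66 ± 0.15), so that 8.7% passed.

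Of 272 microRNA genes with a probe set 3 passed, or 1.1%, all higher, against 3.29% of all genes that rose. Which RNA form these probe sets read, precursor or mature, is not stated. Their mature sequences (RefSeq, GRCm38.p6) are shown because the seed, bases 2 to 8 in capitals, decides which messages a microRNA can pair with, and the 6 seeds all differ.
mmu-miR-221-3p, chrX:19146307-19146329, minus strand: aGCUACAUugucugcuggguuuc
mmu-miR-221-5p, chrX:19146344-19146369, minus strand: aCCUGGCAuacaauguagauuucugu
mmu-miR-455-5p, chr4:63256867-63256888, plus strand: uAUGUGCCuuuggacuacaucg
mmu-miR-455-3p, chr4:63256904-63256924, plus strand: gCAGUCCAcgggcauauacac
mmu-miR-708-5p, chr7:96249450-96249472, plus strand: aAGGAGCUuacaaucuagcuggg
mmu-miR-708-3p, chr7:96249496-96249517, plus strand: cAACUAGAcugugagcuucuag
Mir221 read 33.6, 50.7 and 48.3 in p53- Rb- Myc+ cells, against 20.3, 19.5 and 19.9 in p53- Myc+ cells (log2 fold change 0.73 ± 0.16, adjusted p = 0.0077 in limma), and its adjusted p was 0.0596 without p53- Rb- Myc+ replicate 2. Its mature 3p form is known to target the CDK inhibitor p27, whose gene Cdkn1b did not pass here (0.097 ± 0.20). Mir708 read 61, 71.4 and 13.8 in p53- Rb- Myc+ cells, against 2.76, 9.43 and 2.69 in p53- Myc+ cells (log2 fold change 1.5 ± 0.28, adjusted p = 0.00134 in limma), so p53- Rb- Myc+ replicate 3 was far below the other 2. Mir455 read 161, 168 and 161 in p53- Rb- Myc+ cells, against 100.4, 95.9 and 119.9 in p53- Myc+ cells (log2 fold change 0.57 ± 0.16, adjusted p = 0.0404 in limma), though 11 of 19 alternatives put its adjusted p above 0.05, with adjusted p-values between 0.0924 and 0.139 without any 1 of 5 of the 6 arrays. Genes at or beside these 3 did not pass in limma. Mir222, next to Mir221, had 0.14 ± 0.16 (adjusted p = 0.784). Tenm4, which hosts Mir708, had 0.31 ± 0.17 (adjusted p = 0.45), though its arrays did not overlap. Col27a1, which hosts Mir455, had 0.0030 ± 0.20 (adjusted p = 0.998). The 3 microRNA genes that passed were named after their values were seen.

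The change with the Rb- label was set beside the same comparison without the MYC retrovirus, p53- Rb- over p53-, which shares no array with it. There 3949 genes passed (19.8%). Of the 935 genes that passed with MYC, 353 passed in both, 37.8% of the 935 and 8.94% of the 3949. Of these 353, 181 were higher in both and 25 lower in both, 52 were higher with and lower without MYC, and 95 lower with and higher without. The difference itself passed for 2715 genes (13.6%), 550 of them among the 935.

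Among genes that rose in both comparisons was Serping1, with 4.39 ± 0.18 with MYC and 2.84 ± 0.18 without, both under 0.05, although their difference passed too (adjusted p = 0.000279 in limma). Stra6 had 3.18 ± 0.20 with MYC and 1.29 ± 0.20 without, again with a passing difference (adjusted p = 9.38e-05 in limma). Ccl9 had 1.41 ± 0.17 and 1.3 ± 0.17, Igfbp6 1.71 ± 0.17 and 1.43 ± 0.17, and Col4a1 0.79 ± 0.16 and 0.76 ± 0.16, with no passing difference for these 3.

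The differences were ranked only among genes that passed both in Myc+ cells and for the difference, with a mean of at least 100 in a compared group. Among these, Efemp1, Igfbp4, Slco2a1, Adgrg2 and Sbsn had the largest positive differences. In cells without MYC their changes were 0.15 ± 0.20, 0.066 ± 0.19, -0.33 ± 0.18, -0.66 ± 0.19 and -0.44 ± 0.18. Efemp1 read 125, 149 and 149 in p53- Rb- cells and 97.7, 141 and 139.9 in p53- cells. Among the same ranked genes the differences were lowest for Mfap4, Slc43a3, Klhl13, Rarres2 and Lrrc32. Mfap4 read 286, 253 and 531 in p53- Rb- cells and 27.3, 17.5 and 32.9 in p53- cells, so it rose there (3.1 ± 0.24) and fell in Myc+ cells (-2.62 ± 0.24). Rarres2, for the chemoattractant chemerin, had -1.98 ± 0.22 with MYC and 1.83 ± 0.22 without, and Lrrc32, a carrier of latent TGF-beta, -1.66 ± 0.24 and 1.88 ± 0.24.

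Several matrix genes passed in opposite directions in the 2 comparisons. Of 20 fibroblast markers 13 rose and 0 fell without MYC, where 0 rose and 8 fell with MYC, and the difference passed for 16. Of 38 matrix glycoproteins and proteoglycans 17 rose and 2 fell without MYC, and the difference passed for 27. Of all genes 9.36% rose and 10.4% fell without MYC, 3.29% rose and 1.4% fell with MYC, and the difference passed for 13.6%. Col6a3 had -1.41 ± 0.22 with MYC and 1.49 ± 0.22 without, Thbs2 -2.06 ± 0.16 and 1.37 ± 0.16, and Mmp2 -1.26 ± 0.17 and 1.37 ± 0.17. The summed luminal and basal markers were far higher in p53- Rb- and p53- cells than in both Myc+ groups, and the part of that in the difference was not tested.

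**Figure D5:**
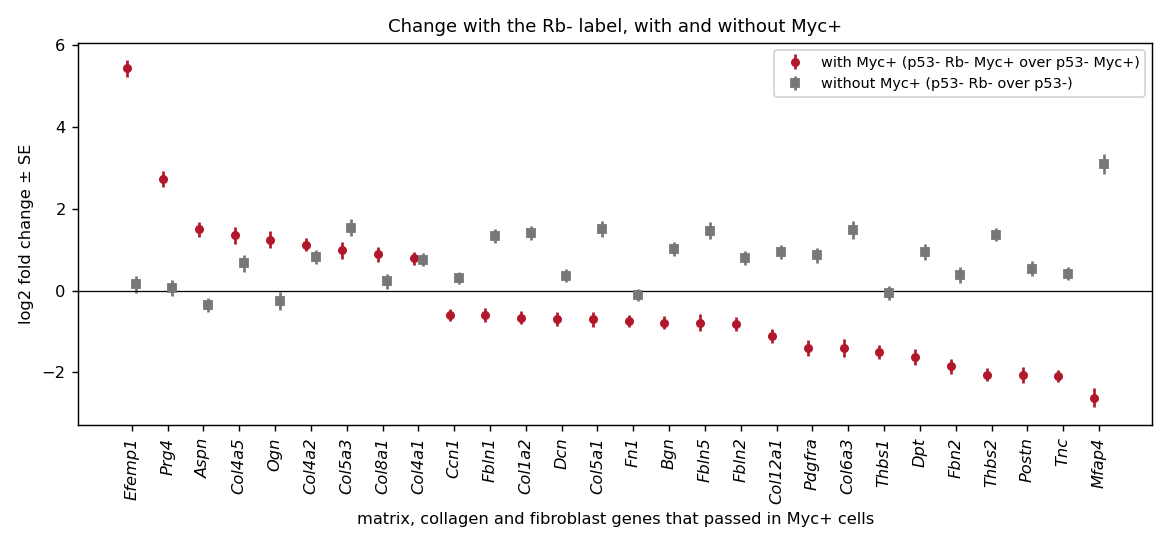
Log2 fold change ± SE with the Rb- label for the matrix, collagen and fibroblast genes that passed in Myc+ cells, as circles with MYC (p53- Rb- Myc+ over p53- Myc+) and squares without (p53- Rb- over p53-). Most genes that fell with MYC have squares above 0, and Mfap4 has -2.62 with MYC and 3.1 without.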

How the data were processed

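Cultured cells were profiled on 15 Affymetrix arrays, 3 in each of 5 groups taken from the labels. RNA was amplified with a WT-Ovation Pico kit, per the labels' protocols. The authors deposited 1 intensity per probe set. The submitters' processing notes name Affymetrix Expression Console 1.1, without saying how probes were summarised or arrays scaled. The deposited intensity values ran from 4.11e-05 to 8348 with no negatives, and so were taken as linear. No detection calls were used, so low values cannot be told from background.

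Of 35556 probe sets, 21789 had exactly 1 gene symbol in the platform annotation, and the 1621 with several and 12146 unlisted were left out. Where a gene had several probe sets, the one brightest on average (log2) stood for it, which left 19938 genes. The log2 of the deposited intensity plus 16 was fitted in R 4.3.3 by limma 3.58.1 (eBayes after lmFit with 5 group means, 10 residual and 11.8 prior degrees of freedom). Tests were 2-sided with Benjamini-Hochberg adjustment over all genes, and the fit was tested on simulated data. The genes, the 44 lists (1266 of 1362 entries measured) and the tests were chosen with earlier results of these data known. Named genes were the RB network list and Myc, the 12 highest and 12 lowest fold changes among passing genes of at least 100 in the higher group without overlap, up to 6 passing members a list and direction, and the 2 brightest of lists with none passing. Also named were the 5 highest and 5 lowest differences between both Rb comparisons. Those were taken among genes that passed both in Myc+ cells and for the difference, with a mean of at least 100 in a compared group. Cell type markers were named from fixed lists, and Mcm5, Mcm6 and Cdc6 for their promoters.

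Same-numbered arrays of both Myc+ groups had correlated deviations from the means of their groups (r = 0.102, 0.192 and 0.379). Arrays with different numbers had r between -0.272 and 0.0639. Deviations cancel within each group, so such values alone cannot settle a pairing. The labels do not explain the replicate numbers, and the main fit did not pair the arrays. Blocking on the number is among the 19 alternatives, beside other constants, scalings, filters, models of the spread and leaving out each array.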

Additional observations from a re-analysis of the deposited data

Results flagged for a closer look

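The change with the Rb- label differed between cells with and without the MYC retrovirus for 2715 genes by the test of the difference itself (limma, adjusted p under 0.05). The values below are log2 differences, the change with MYC minus the change without, for named genes that passed this test. Among the 12 genes with the highest fold change, all 12 passed, with 5.28 for Efemp1, 1.55 for Serping1, 3.89 for Igfbp4, 2.8 for Crip1, 3.83 for Slco2a1, 3.22 for Pcdh17, 1.9 for Stra6, 2.3 for Ctsc, 3.83 for Adgrg2, 2.76 for Grb10, 2.73 for Hspb1 and 3.4 for Sbsn. Among the 12 with the lowest, all 12 passed too, with -5.3 for Slc43a3, -4.58 for Klhl13, -3.24 for Tubb3, -3.16 for Mmp3, -3.13 for Epha3, -2.71 for Fbxo17, -5.72 for Mfap4, -3.42 for Crabp1, -3.06 for Lgi2, -2.17 for Slc38a1, -3.42 for Osr1 and -1.43 for Nexn. Since these 24 were chosen for a large change with MYC, a large difference is partly built into the choice. Rarres2 had -3.81 and Lrrc32 -3.54. In the RB network 5 of 34 genes passed, which is near the 13.6% of all genes that did, so the count is no result about the network. The values were 0.70 for Rb1, -1.44 for Ccnd2, 1.43 for Ccne2, 0.75 for Cdk6 and 0.67 for Fbxo5.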

How the results depend on the processing

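Under the 19 alternatives between 647 (without p53- Rb- Myc+ replicate 2) and 1344 (array weights) genes passed, all within 1.5 times of 935. With the replicate block the count was 1022 in the fit of all arrays with the block for the Myc+ arrays, 953 with the 6 arrays only and 930 with the block shared by all groups. The first block ended the call of 1 named gene, Ezh1 (adjusted p = 0.0521 in limma), and changed no other call of a named gene, while the block with 6 arrays ended 11. The count of 2715 genes for the difference of both Rb comparisons became 5397 with array weights, and ranged over single arrays left out between 1760 (without p53- replicate 3) and 3233 (without p53- replicate 2), with 1793 without p53- Rb- Myc+ replicate 2. Of 160 named genes that passed, 111 passed in all alternatives that kept them. The constant of 1 or 64 moved the fold change of 62 of the 160 by over 1.5 times and 50 list medians relative to all genes moved by more than the replicate SD against 786 that did not. Changes of sign were limited to genes that did not pass: with median centring Ccnd3 -0.020, Ccna2 -0.017, Lin54 -0.076, Birc5 -0.0017, Topbp1 -0.070, Fbl -0.016, Paics -0.0043 and Mcm5 -0.056, with quantile normalization Lin54 -0.021 and Cdkn2a 0.0041, with array weights Cdkn2a 0.086, and with the mean of probe sets Fbl -0.030. With single arrays left out the changes ran over -0.20 to 0.053 for E2f3, -0.12 to 0.0092 for E2f4, -0.025 to 0.57 for Cdk2, -0.13 to 0.14 for Cdkn2a, -0.13 to 0.12 for Cdc25a, -0.12 to 0.17 for Lin54, -0.035 to 0.00015 for Pcna, -0.068 to 0.10 for Topbp1, -0.24 to 0.00057 for Rad18, -0.013 to 0.17 for Paics, -0.040 to 0.097 for Mcm5 and -0.12 to 0.11 for Cdc6. The causes were not tested.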
